A study of Mus musculus with 6 samples.

Results

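The expression of 46 cell cycle and proliferation genes was examined in mouse cortex at postnatal day 7 (P7). The members were chosen by name as known cell cycle genes, and all 46 were found among the 24972 genes measured. They comprised 22 G1/S genes, which act at entry into and during DNA replication, 21 G2/M genes, which act in mitosis, and 3 inhibitors of cyclin-dependent kinases (CDKs). The rule uses no measured value.

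Wildtype libraries came from Zmiz1f/f mice and the other libraries from Zmiz1f/f;Emx1Cre mice, labelled Zmiz1-KO. Both groups therefore carry the floxed allele, and the groups differ in the Cre transgene, which the Emx1 gene drives in cortical progenitors and which their excitatory neurons and glia inherit. Cortical interneurons, microglia and vessels arise mostly from other lineages. There were 3 libraries per group, and neither the labels nor the methods say whether each came from 1 animal, so that p-values measure only the spread between these libraries.

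Cyclins bind and switch on CDKs, and the order in which they do so drives the cell cycle. The D-type cyclins with CDK4 and CDK6 act in G1 and free E2F transcription factors from RB proteins, which turns on the genes of DNA replication. Later, CDK1 with the A- and B-type cyclins starts mitosis, and CDK inhibitors hold these kinases back. In the mouse cortex most excitatory neurons are born before birth, and the cells that still divide in the first postnatal week are mainly glia and their precursors, with neuroblasts and progenitors near the ventricle.

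Many of these genes share short promoter elements. E2F sites are known from promoters of G1/S genes, whereas the cell cycle homology region (CHR), which the DREAM and MuvB complexes bind through LIN54, and CCAAT boxes, which NF-Y binds, are known from promoters of G2/M genes. Promoters of 37 of the 46 members were found in RefSeq (GRCm38.p6). There was no entry for Ccnd1, Ccnd2, Ccne2, Mcm4, Ccna2, Aurkb, Kif20a, Tpx2 and Cdkn1c. The windows of 300 bases, from 250 before to 50 after the start of transcription, were searched on both strands for TTTGAA and TTCGAA (CHR), TTTCGCGC and TTTGGCGC (E2F) and CCAAT. As a description, a CHR was found in 14 of 17 promoters of G2/M members (82.4%), in 3 of 20 of G1/S members (15%) and in 19.2% of all 32851 promoters. An E2F match was found in 5 of 20 promoters of G1/S members (25%), those of Cdt1, Mcm3, Mcm5, Mcm6 and Mcm7, in 1 of 17 of G2/M members (5.88%), that of Cdk1, and in 0.813% of all promoters. CCAAT was found in 16 of 17 promoters of G2/M members (94.1%), in 12 of 20 of G1/S members (60%) and in 37.4% of all promoters.

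The 160 bases before the start of transcription are shown for 8 members. Mcm5 and Mcm6 show the E2F matches, Mki67, Top2a and Cdk1 show the CHR and CCAAT elements of commonly used markers of dividing cells, and Mcm2, Hmgb2 and Kif11 belong to genes with a low unadjusted p below. Capitals mark E2F, CHR and CCAAT matches on either strand, and the sequences run 5′ to 3′ along the gene.
Mcm5 (G1/S, chr8:75109349-75109508, forward strand): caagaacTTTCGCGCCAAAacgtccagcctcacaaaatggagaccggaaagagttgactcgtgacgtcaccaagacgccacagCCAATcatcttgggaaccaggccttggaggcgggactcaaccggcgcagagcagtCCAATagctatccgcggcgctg
Mcm6 (G1/S, chr1:128359706-128359865, reverse strand): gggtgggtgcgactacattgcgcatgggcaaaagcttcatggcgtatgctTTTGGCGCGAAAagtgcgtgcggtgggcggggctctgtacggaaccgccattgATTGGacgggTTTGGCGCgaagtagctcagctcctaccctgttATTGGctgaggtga
Mcm2 (G1/S, chr6:88898781-88898940, reverse strand): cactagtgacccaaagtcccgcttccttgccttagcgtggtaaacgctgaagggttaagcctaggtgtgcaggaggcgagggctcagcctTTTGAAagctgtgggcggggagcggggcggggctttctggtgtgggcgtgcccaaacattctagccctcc
Mki67 (G2/M, chr7:135716380-135716539, reverse strand): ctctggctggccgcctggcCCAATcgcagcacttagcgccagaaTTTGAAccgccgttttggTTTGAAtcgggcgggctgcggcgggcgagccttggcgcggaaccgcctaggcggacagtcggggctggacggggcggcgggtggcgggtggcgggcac
Top2a (G2/M, chr11:99024190-99024349, reverse strand): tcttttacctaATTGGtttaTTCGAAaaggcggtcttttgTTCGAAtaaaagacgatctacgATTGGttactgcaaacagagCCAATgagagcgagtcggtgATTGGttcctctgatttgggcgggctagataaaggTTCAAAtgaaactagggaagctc
Cdk1 (G2/M, chr10:69352913-69353072, reverse strand): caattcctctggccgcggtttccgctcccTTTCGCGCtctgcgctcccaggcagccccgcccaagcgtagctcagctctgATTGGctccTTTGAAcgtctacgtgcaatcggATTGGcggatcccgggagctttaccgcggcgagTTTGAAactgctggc
Hmgb2 (G2/M, chr8:57511683-57511842, forward strand): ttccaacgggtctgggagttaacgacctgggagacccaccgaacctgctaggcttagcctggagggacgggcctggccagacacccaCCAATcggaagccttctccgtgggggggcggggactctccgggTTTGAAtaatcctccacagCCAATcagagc
Kif11 (G2/M, chr19:37376222-37376381, forward strand): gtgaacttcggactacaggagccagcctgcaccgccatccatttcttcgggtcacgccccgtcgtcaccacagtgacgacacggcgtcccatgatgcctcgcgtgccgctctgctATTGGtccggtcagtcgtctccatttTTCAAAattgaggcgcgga

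In Mcm5, and in the first of the pair of E2F blocks of Mcm6, a match on each strand overlaps the other. Mki67 holds 2 CHR matches and Top2a holds 3, and Cdk1 holds an E2F match together with 2 CHR and 2 CCAAT matches. Mcm2, a G1/S gene, holds 1 CHR match. A match is only a run of letters, and binding was not measured.

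All values are the authors' DESeq2-normalized counts. Estimated from the spacing of low values, the libraries held 15495006 to 17858811 counted reads, and the lowest member in any library rested on about 19.0 reads. Zmiz1, the targeted gene, was not lower in the libraries labelled Zmiz1-KO. It was 8119, 7929 and 7461 in wildtype and 9944, 9779 and 9660.2 in the other group (log2 fold change 0.32, SE 0.040, limma adjusted p = 0.00125). A value for the whole gene does not separate deleted exons from retained ones, so it does not check the deletion, and the group is called by its label throughout. By qPCR, the authors reported lower Zmiz1 in Zmiz1-KO samples than in controls, opposite in direction to the values here. The reason for this difference was not tested. Xist, expressed from the inactive X chromosome, was high in wildtype replicate 3 (25307) and in replicate 2 of the libraries labelled Zmiz1-KO (24403) and at 12.9 to 57.3 in the other libraries, so each group held 1 library with high Xist. Ddx3y, a Y-linked gene, was at 0 and 1.89 in those libraries and at 1250.2 to 1483 in the others.

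The labels give cortex as the tissue, while their treatment text speaks of isolating progenitors. Markers of cortical excitatory neurons were abundant, with a sum over 7 genes of 44670.1 to 51268 normalized counts. Slc17a7, the vesicular glutamate transporter of these neurons, averaged 19640.0 ± 1127 in wildtype (SD, n = 3). Atoh1 and En2, which mark the cerebellum and its granule cell precursors, were at 0 in 5 and 3 of the 6 libraries and reached at most 2.01 and 3.95. Other genes listed for these cells were above 0 in every library. Zic1 was at 595 to 1037, Zic2 at 517 to 688, Cbln3 at 36.2 to 69.7 and Barhl1 at 2.38 to 11.2.

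All 46 members were expressed. Divided by the length of the merged exons, wildtype levels ran from 10.3 normalized counts per kb for Cdc6, which loads the replicative helicase, to 701 for Cdk4, a G1 kinase, with a median of 87.9. The median over the 15589 tested genes with a length was 164, and 10 of 46 members lay above it. These were 7 of 22 G1/S genes, 2 of 3 CDK inhibitors and 1 of 21 G2/M genes. After Cdk4 came Pcna, the sliding clamp of DNA polymerases, at 572 per kb, Ccnd2 at 540.0 and Ccnd1 at 313, the latter both D-type cyclins.

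The inhibitors Cdkn1b (p27) and Cdkn1c (p57) followed, at 311 and 289 normalized counts per kb. The single G2/M gene above the median of all genes was Hmgb2, a chromatin protein, at 242 per kb. Mki67, the proliferation marker that encodes Ki-67, was at 88.7 per kb, near the middle of the members. The lowest levels per kb after Cdc6 were those of Kif23 (19.9), a motor of cell division, Cenpf (20.7), a kinetochore protein, and Tyms (21.95), the thymidylate synthase. Levels between genes depend on the annotation of exons and describe bulk tissue, in which fewer dividing cells and less RNA per cell cannot be told apart.

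**Figure D1:**
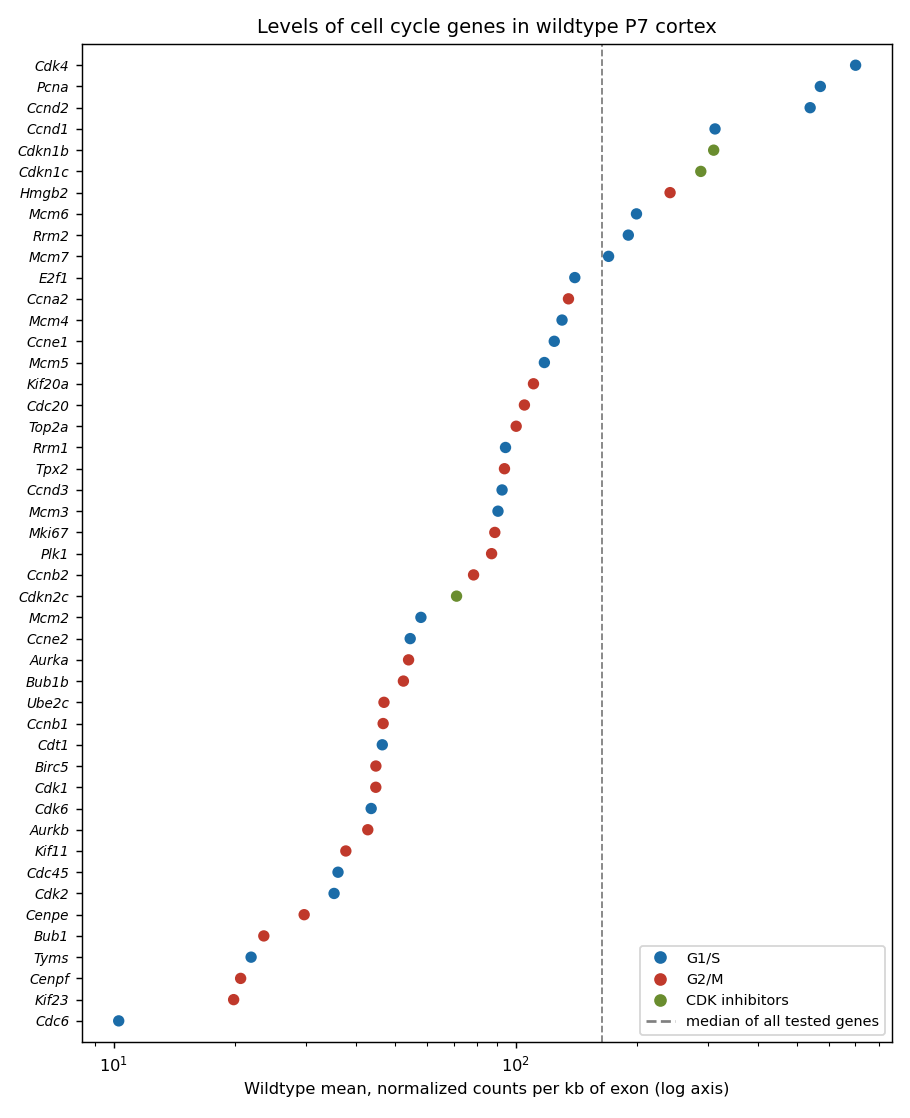
Wildtype mean of each of the 46 members in normalized counts per kb of exon, on a log axis, coloured by role, with a dashed line at the median of all tested genes (164). G1/S genes and CDK inhibitors fill most of the upper end, and Hmgb2 is the one G2/M gene to the right of the line.

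The comparison of the libraries labelled Zmiz1-KO with wildtype asked whether these genes differed at P7 when the Cre was present. None of the 46 members passed the threshold, an adjusted p of 0.05 in limma over all 15800 tested genes, beside 65 genes called in all (0.411%). The same count, 0 of 46, was found with limma-voom. At an unadjusted p under 0.05 in limma there were 7 members (15.2%), beside 11.0% of all tested genes. Relative to wildtype, 6 of them were higher and 1, Cdk6, was lower. With limma-voom there were also 7. Groups did not overlap in 7 members (15.2%), again 6 higher and 1 lower, beside 16.3% of all tested genes. Both shares lie near those of all genes.

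Differences were small throughout. Every member's log2 fold change (labelled Zmiz1-KO minus wildtype, on the log2(value + 1) scale) lay between -0.32 for Cdk6 and 0.30 for Kif11, a fold of 0.802 to 1.23. Of the 46 members 31 lay above 0 (67.4%), beside 49.9% of all tested genes. The median log2 fold change was 0.07 over all members, 0.06 over G1/S genes, 0.07 over G2/M genes and -0.04 over the 3 CDK inhibitors, and -0.000175 over all tested genes. The 95% interval of the difference lay within 2-fold either way for all 46 members and within 1.5-fold for 45. The exception was Cdc6, whose low values left an interval of -0.49 to 0.68.

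**Figure D2:**
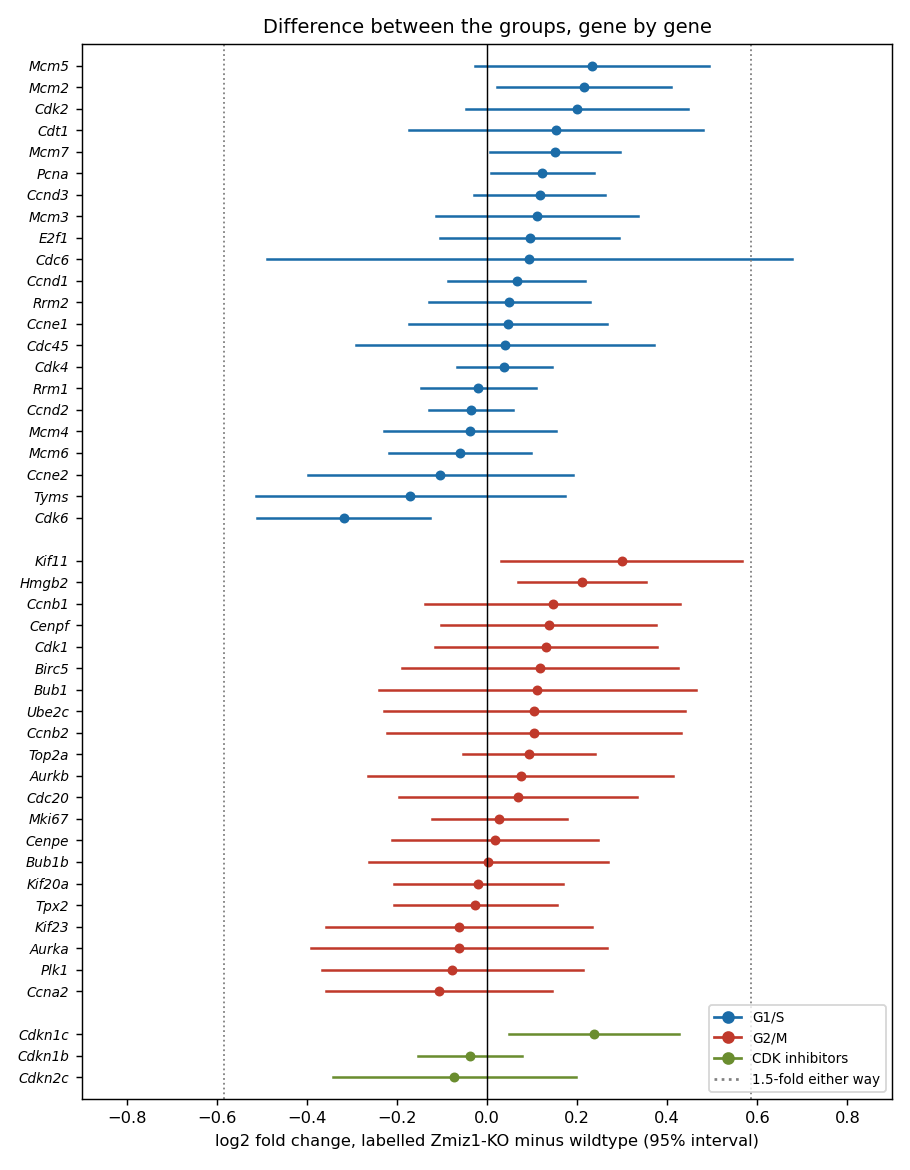
Log2 fold change of each member, labelled Zmiz1-KO minus wildtype, with its 95% interval from limma, grouped by role and sorted, with dotted lines at 1.5-fold either way. Only the interval of Cdc6 crosses a dotted line, and 7 intervals lie clear of 0.

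**Figure D3:**
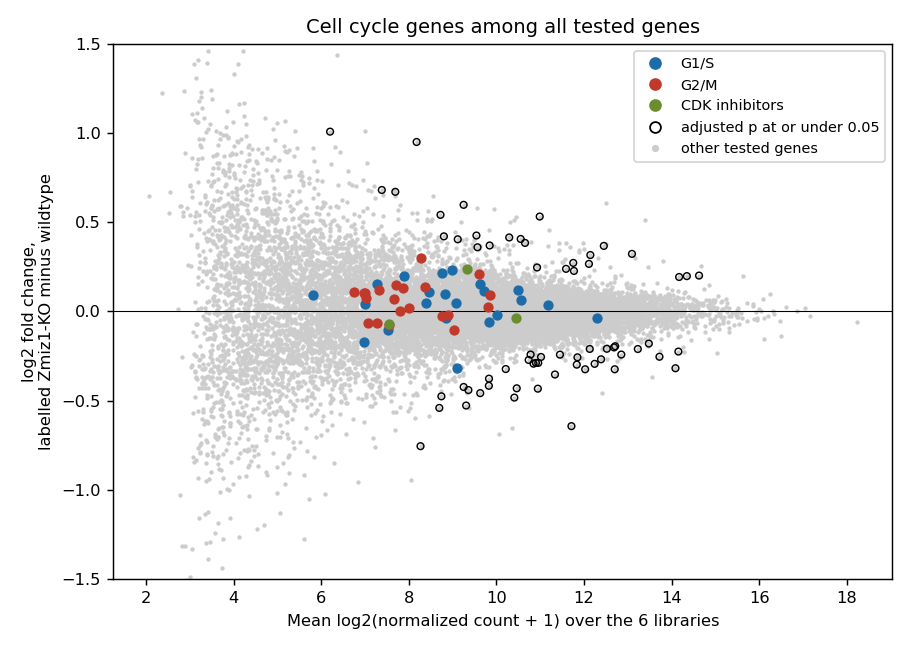
Log2 fold change against the mean log2(normalized count + 1) over the 6 libraries for all tested genes (grey), with the members coloured by role and the 65 called genes circled. The members lie between -0.32 and 0.30 and none is circled, and 44 genes beyond 1.5 either way are not drawn.

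Among the 9 members of the first list, the G1 cyclins and CDKs with E2f1, none was called. Beside 11.0% of all tested genes, 1 of them (11.1%) had an unadjusted p under 0.05. That gene was Cdk6, the kinase that works with D-type cyclins beside Cdk4. Cdk6 (chr5:3341485-3531008 in GRCm38) was at 568, 564 and 701 in wildtype and at 497, 489.8 and 475 in the libraries labelled Zmiz1-KO (611 ± 77.6 against 487 ± 11.3, SD, n = 3). All 3 wildtype libraries lay above the 3 others, and wildtype replicate 3 stood apart at the top. The log2 fold change was -0.32 (SE 0.091, 95% interval -0.51 to -0.13), the lowest adjusted p of any member (limma adjusted p = 0.18). Without wildtype replicate 3, which is also the wildtype library with high Xist, the log2 fold change was -0.22 (limma adjusted p = 0.388).

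Its partner kinase Cdk4 had a log2 fold change of 0.04 (95% interval -0.07 to 0.14), and the partner cyclins were likewise close between the groups. Ccnd2, the D-type cyclin with the highest level per kb, was at 5224, 5114 and 4905 in wildtype and at 4709.98, 5099 and 5065 in the libraries labelled Zmiz1-KO. The groups overlapped, and its interval was the narrowest of all members (log2 fold change -0.04, 95% interval -0.13 to 0.06). Ccnd1 was at 1560.5, 1559 and 1304 in wildtype and at 1557, 1618 and 1445.5 in the other group, with overlap and a log2 fold change of 0.07 (95% interval -0.09 to 0.22).

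Ccnd3, the third D-type cyclin, was at 765, 834.0 and 834.2 in wildtype and at 879.6, 839 and 919.6 in the libraries labelled Zmiz1-KO. The groups did not overlap, but the gap between them was narrow (log2 fold change 0.12, SE 0.069, limma adjusted p = 0.57). Cdk2, the kinase of S phase entry, was at 216, 211 and 231 in wildtype and at 276, 237 and 245 in the other group, also without overlap (log2 fold change 0.20, SE 0.12, limma adjusted p = 0.564). Its partners Ccne1 and Ccne2, the E-type cyclins, had log2 fold changes of 0.05 and -0.10, and E2f1, a transcription factor of S phase genes, of 0.09, all with overlapping groups.

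Among the 13 genes of replication licensing and S phase none was called. Beside 11.0% of all tested genes, 3 (23.1%) had an unadjusted p under 0.05, all with the higher mean under the Zmiz1-KO label. Mcm2, a subunit of the MCM2-7 helicase that unwinds DNA, was at 407, 395 and 410.2 in wildtype and at 444.5, 443.8 and 523 in the other group (404 ± 8.09 against 471 ± 45.7, SD, n = 3). The groups did not overlap, and replicate 3 of the libraries labelled Zmiz1-KO was the highest (log2 fold change 0.22, SE 0.092, limma adjusted p = 0.386). Mcm7, another subunit of this helicase, was at 735, 757 and 769 in wildtype and at 869.6, 792 and 849 in the other group, without overlap (log2 fold change 0.15, SE 0.068, limma adjusted p = 0.424).

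Pcna was at 1354, 1389 and 1379 in wildtype and at 1534, 1524 and 1431 in the libraries labelled Zmiz1-KO (1374 ± 17.8 against 1496 ± 56.5, SD, n = 3). The wildtype libraries were the tightest of any member, with a coefficient of variation of 1.29%, and the groups did not overlap (log2 fold change 0.12, SE 0.054, limma adjusted p = 0.411). The 6 subunits of the helicase lay on both sides of 0, with log2 fold changes of 0.22 for Mcm2, 0.11 for Mcm3, -0.04 for Mcm4, 0.23 for Mcm5, -0.06 for Mcm6 and 0.15 for Mcm7. Of these subunits, only Mcm2 and Mcm7 had groups that did not overlap. With Pcna they were 3 of the 13 genes of this list (23.1%), beside 16.3% of all tested genes.

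The loading factors Cdc6 and Cdt1 and the helicase cofactor Cdc45 had log2 fold changes of 0.09, 0.15 and 0.04. Rrm1 and Rrm2, the subunits of ribonucleotide reductase, which makes the building blocks of DNA, were at -0.02 and 0.05, and Tyms, which makes thymidylate, was at -0.17. All of these had overlapping groups. Mcm7 and Pcna share 13.2% and 13.8% of their 75-base stretches with transcripts of other genes, most with the predicted gene Gm5487 and the pseudogene Pcna-ps2, so a part of their reads could be assigned elsewhere, whereas Mcm2 shares none.

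Among the 12 G2/M cyclins, kinases and genes of the anaphase-promoting complex, counted with Mki67, Top2a and Hmgb2, none was called. In 1 of them (8.33%) the unadjusted p was under 0.05, beside 11.0% of all tested genes. Mki67 (chr7:135689784-135716361), present only in cycling cells, was at 924, 866 and 887 in wildtype and at 849, 996 and 889 in the libraries labelled Zmiz1-KO (892 ± 29.6 against 911 ± 75.8, SD, n = 3). The groups overlapped fully, with replicates 1 and 2 of the libraries labelled Zmiz1-KO as the lowest and the highest of all. The log2 fold change was 0.03, and its 95% interval of -0.12 to 0.18 corresponds to a change between -8.15% and 13.1% (limma adjusted p = 0.93).

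Top2a, the topoisomerase that untangles chromosomes before mitosis, was at 844, 963 and 903 in wildtype and at 929, 1018 and 941 in the other group, with overlap (log2 fold change 0.09, 95% interval -0.05 to 0.24). Hmgb2 (chr8:57511907-57515999), a chromatin protein abundant in dividing cells, was at 690.3, 751 and 739 in wildtype and at 838.5, 846.5 and 838.4 in the libraries labelled Zmiz1-KO (727 ± 32.2 against 841 ± 4.64, SD, n = 3). It was the one G2/M gene of 21 whose groups did not overlap (4.76%, beside 16.3% of all tested genes), and the 3 libraries labelled Zmiz1-KO were almost equal. The log2 fold change was 0.21 (SE 0.067, 95% interval 0.07 to 0.35, limma adjusted p = 0.236), and 17.5% of its 75-base stretches are shared with other transcripts, most with the predicted gene Gm4739.

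Cdk1, the mitotic kinase, was at 205, 239 and 220.4 in wildtype and at 256, 233 and 237 in the libraries labelled Zmiz1-KO, with overlap (log2 fold change 0.13, SE 0.12). The cyclins that activate it had log2 fold changes of -0.11 for Ccna2, 0.15 for Ccnb1 and 0.10 for Ccnb2. Among the wildtype libraries Ccna2 spread from 444 to 641, a coefficient of variation of 18.1%, the widest after that of Cdc6 (18.2%). The mitotic kinases Plk1, Aurka and Aurkb were at -0.08, -0.06 and 0.07, and Cdc20 and Ube2c, which work with the anaphase-promoting complex to destroy cyclins, were at 0.07 and 0.10.

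Among the 9 genes of the spindle, the kinetochore and the checkpoint, none was called. Only Kif11 had an unadjusted p under 0.05 (11.1%, beside 11.0% of all tested genes). Kif11, the motor that pushes the spindle poles apart, was at 254, 336 and 256 in wildtype and at 358, 301 and 377 in the libraries labelled Zmiz1-KO (282 ± 46.6 against 345 ± 39.7, SD, n = 3). The groups overlapped, as wildtype replicate 2 lay above replicate 2 of the other group. Its log2 fold change of 0.30 was the highest of the members (SE 0.13, 95% interval 0.03 to 0.57, limma adjusted p = 0.385).

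Cenpf was at 307, 373 and 277 in wildtype and at 352, 332 and 361 in the libraries labelled Zmiz1-KO, with overlap and again with wildtype replicate 2 as the highest (log2 fold change 0.14, SE 0.11). Leaving out wildtype replicate 2 gave 0.26 and leaving out wildtype replicate 3 gave 0.04. Birc5 (survivin), a subunit of the chromosomal passenger complex, was at 148.7, 148.8 and 160.5 in wildtype and at 142, 169 and 189 in the other group (log2 fold change 0.12, SE 0.15). Leaving out replicate 1 of the latter gave 0.23 and leaving out its replicate 3 gave 0.02. The groups of Birc5 overlapped as well, with the libraries labelled Zmiz1-KO spread wider. The checkpoint kinases Bub1 and Bub1b were at 0.11 and 0.00252, the motors Kif20a and Kif23 at -0.02 and -0.06, the kinetochore motor Cenpe at 0.02 and the spindle factor Tpx2 at -0.03.

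**Figure D4:**
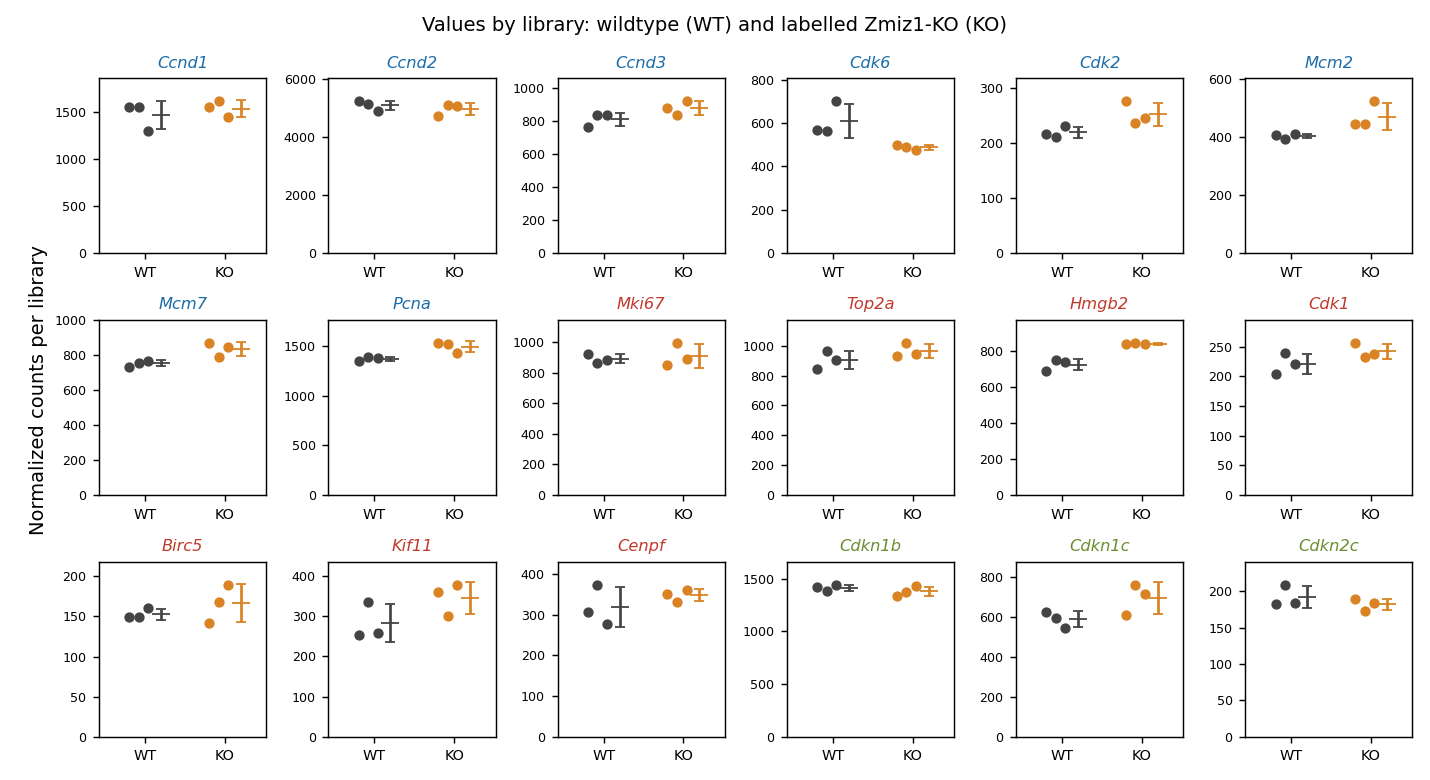
Normalized counts of 18 members in each library (points, in order of replicate) with the mean and SD of the 3 libraries beside them, wildtype in grey and labelled Zmiz1-KO in orange, gene names coloured by role, and every axis starting at 0. Among these genes, Cdk6 alone has all wildtype libraries above the others, and Mki67, Top2a and Ccnd2 overlap between the groups.

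None of the 3 CDK inhibitors was called, and 1, Cdkn1c, had an unadjusted p under 0.05 (33.3%, beside 11.0% of all tested genes). Cdkn1c (p57), an imprinted inhibitor of G1 kinases, was at 626, 593 and 547 in wildtype and at 608, 761 and 717 in the libraries labelled Zmiz1-KO (589 ± 39.7 against 696 ± 78.9, SD, n = 3). Replicate 1 of the libraries labelled Zmiz1-KO lay among the wildtype libraries and the other two lay above them (log2 fold change 0.24, SE 0.089, limma adjusted p = 0.323). Transcripts of the predicted gene Gm44732 overlap 30.7% of its exons, and the library kit does not mark strand.

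Cdkn1b (p27), which holds back CDK2 in cells that leave the cycle, was at 1419, 1384 and 1441 in wildtype and at 1332, 1376 and 1425 in the other group, with overlap (log2 fold change -0.04, 95% interval -0.15 to 0.08). Cdkn2c (p18), an inhibitor of CDK4 and CDK6, was at 182, 209 and 183.5 in wildtype and at 188.6, 173 and 183.3 in the other group, also with overlap (log2 fold change -0.07, 95% interval -0.34 to 0.20).

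Seen by library, the members did not split cleanly by group. Summed over all 46 members, wildtype libraries held 26765, 27711 and 27121 normalized counts and the libraries labelled Zmiz1-KO 27727, 27684.5 and 28351, between 0.0805% and 0.0862% of each library. Wildtype replicate 2 lay above 1 library of the other group. G1/S genes summed to 18040.2 to 18536 in wildtype and 18312 to 18857 in the other group, with overlap. G2/M genes summed to 6498 to 6990.0 in wildtype against 7063 to 7168 in the other group, without overlap (6799 ± 264 against 7104 ± 55.7, SD, n = 3), with wildtype replicate 1 the lowest. These sums are led by the most abundant genes. The median deviation of the 21 G2/M genes from the mean of the 6 libraries, in log2(value + 1), did overlap. It was -0.057, 0.0016 and -0.012 in wildtype and 0.040, -0.043 and 0.043 in the other group.

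**Figure D5:**
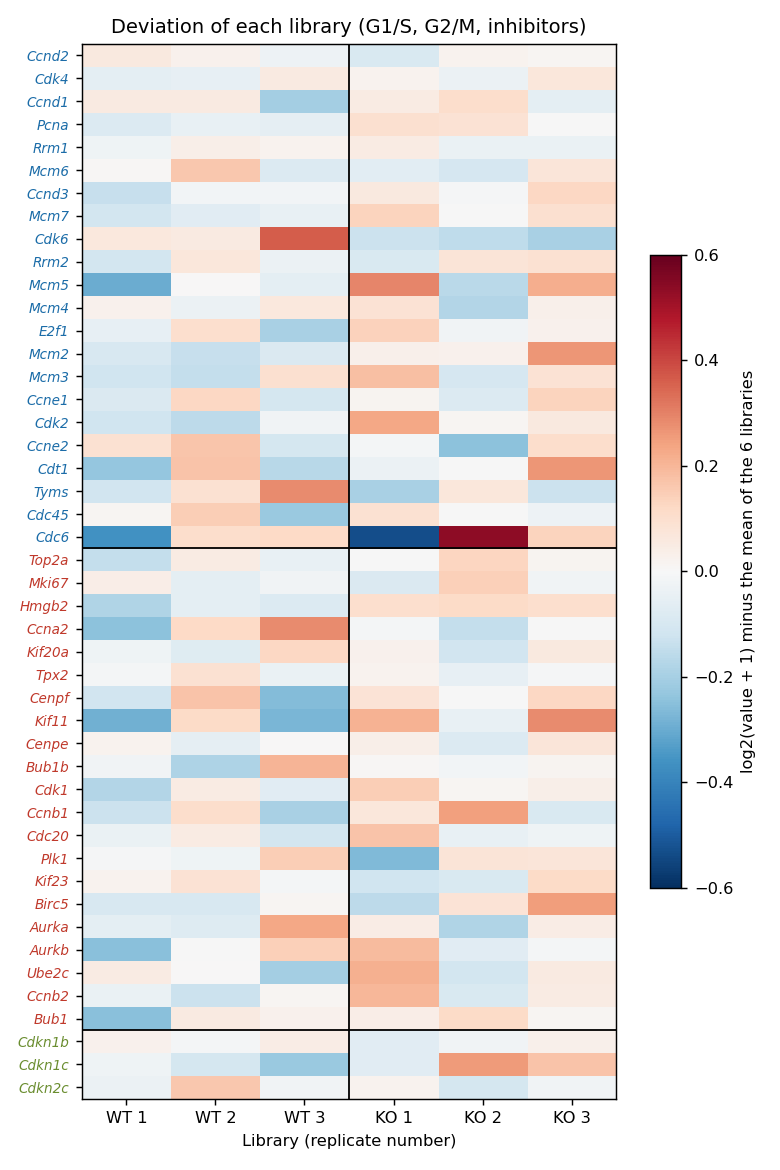
Deviation of each library from the mean of the 6 libraries in log2(value + 1), with 46 members in rows grouped as G1/S, G2/M and CDK inhibitors (ordered by abundance within a group) and libraries in columns, wildtype left and labelled Zmiz1-KO right of the vertical line. Colours are pale except in single cells such as Cdc6, and Cdk6 is red in wildtype replicate 3 and blue in the 3 libraries on the right.

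Other genes of the same pathways, outside the 46 members, showed no call either. Of 36 other replication genes 0 were called by limma in either direction, and the median log2 fold change was 0.02. Beside 11.0% of all tested genes, 2 (5.56%) had an unadjusted p under 0.05. These were Uhrf1, which helps to copy DNA methylation, with means of 335 in wildtype and 416 in the other group (log2 fold change 0.31, limma adjusted p = 0.216), and Rpa3, a subunit of the protein that binds single-stranded DNA, with means of 261 and 173 (-0.57, limma adjusted p = 0.24). Of 19 other E2F, RB and DREAM genes 0 were called, with a median of 0.00506. Beside the same 11.0%, 1 (5.26%) had an unadjusted p under 0.05. That gene was Foxm1, a transcription factor of mitotic genes (0.22, limma adjusted p = 0.402), followed by the E2F family repressor E2f8 (0.32, limma adjusted p = 0.634). Of the 19, 8 lay below 0. Groups did not overlap in 2 (10.5%, beside 16.3% of all tested genes), Foxm1, which was higher, and Mybl2, which was lower (-0.23, limma adjusted p = 0.675).

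Of 46 other mitosis genes 0 were called, with a median log2 fold change of 0.04. Beside 11.0% of all tested genes, 3 (6.52%) had an unadjusted p under 0.05, all with the higher mean under the Zmiz1-KO label. Of the 46, however, 20 lay below 0. Groups did not overlap in 8 (17.4%), 4 higher and 4 lower, beside 16.3% of all tested genes. The leading genes were Racgap1, a regulator of cytokinesis, at 738, 742 and 753 in wildtype and 886, 872 and 837 in the other group (0.22, limma adjusted p = 0.216), and Ncapd2, a condensin subunit (0.50, limma adjusted p = 0.308). Of the 4 other CDK inhibitors 3 were tested and none was called, with Cdkn2d at 0.05 and Cdkn1a at 0.07. Cdkn2a was at 0 to 5.95 and was not tested.

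Markers of the cell types that can divide at this age, or that a dissection can include, were set beside these results. Oligodendrocyte precursors, among the dividing cells of the postnatal cortex, had 1 of 8 markers called, beside 0.411% of all tested genes. It was Olig1, which fell (means 4673 in wildtype and 3730.5 in the other group, log2 fold change -0.32, limma adjusted p = 0.00173). Next was Gpr17 (-0.15, limma adjusted p = 0.216). Log2 fold changes lay below 0 for 6 of the 8 markers and above 0 for 2. C1ql1 was higher (0.24, limma adjusted p = 0.381), and Cspg4 (0.02), Sox10 (-0.0082) and Nkx2-2 (-0.022) were near 0. The summed level of the 8 markers, led by the most abundant of them, was 17181 to 18199 in wildtype against 15435 to 15868 in the other group. Of 10 markers of radial glia and ventricular progenitors none was called, with Sox2 (0.27) and Vim (0.12) first and sums of 34579 to 36721 against 34184 to 35293. Log2 fold changes were above 0 for 8 of the 10. Below 0 were Slc1a3 (-0.095, limma adjusted p = 0.365) and Fabp7 (-0.062), the 2 most abundant of the list. Of 6 markers of intermediate progenitors 5 were tested and none was called, with Btg2 (0.43) and Insm1 (0.36) first and sums of 819 to 1009 against 1039 to 1108. The transcription factors that define these cells had lower means under the Zmiz1-KO label, with log2 fold changes of -1.04 for Neurog2 (28.4 against 16.0, limma adjusted p = 0.407) and -0.29 for Eomes (101 against 91.3, limma adjusted p = 0.883), but the groups of each overlapped. Neurog2 was at 31.5, 25.2 and 28.6 in wildtype and at 8.06, 9.22 and 30.6 in the other group. Eomes was at 95.8, 129 and 77.5 in wildtype and at 66.5, 157 and 50.4 in the other group. Neurog1 was at 0 in all libraries but 1. Of 8 markers of subventricular zone neuroblasts none was called, with Dlx6 (0.54, limma adjusted p = 0.123) and Dlx5 (0.32) first and sums of 3169.8 to 3919 against 3756 to 3944. An unadjusted limma p under 0.05 was found in 5 of 8 markers of oligodendrocyte precursors (62.5%, 1 higher and 4 lower) and 3 of 10 of radial glia (30%, 2 higher and 1 lower). It was found in 4 of 5 of intermediate progenitors (80%, 3 higher and 1 lower) and 3 of 8 of neuroblasts (37.5%, all higher), beside 11.0% of all tested genes. These lists were chosen with earlier results of these data known.

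Among the other cell types, 1 of 5 astrocyte markers was called, beside 0.411% of all tested genes. It was Aqp4, which fell (-0.29, limma adjusted p = 0.00499), and Gja1 was next (0.08). The 5 markers had sums of 46910.1 to 50621 against 42573 to 49788. Of 5 meningeal markers 1 was called, beside the same 0.411%. It was Col1a2, which rose (0.32, limma adjusted p = 0.00464), with Slc6a13 next (0.40). The 5 markers had sums of 7889 to 9226 against 10419 to 10951. Cortical interneuron markers had no call, with Sst (0.20, limma adjusted p = 0.0598) and Lhx6 (0.27) first and sums of 16026 to 19906 against 21099.9 to 22664. No marker was called for oligodendrocytes (Mag -0.39, Mbp -0.18), microglia (P2ry12 -0.33, Cx3cr1 -0.14), endothelium (Cldn5 0.11, Pecam1 -0.12), mural cells (Vtn 0.18, Pdgfrb 0.09), ependyma (Rarres2 0.15, Tmem212 0.27), erythroid cells (Alas2 -0.22, Hba-a1 -0.28), the cerebellum (Zic2 0.24, Cbln3 -0.54) or cortical excitatory neurons (Bcl11b 0.15, Neurod2 -0.17). These are the 2 markers with the lowest p in each list, and other markers of some lists went the other way. In mural cells 3 of 5 lay below 0 (Rgs5 -0.15, Kcnj8 -0.16, Acta2 -0.07), as did 1 of 4 in ependyma (Ccdc153 -0.14). Above 0 were 1 of 4 tested in erythroid cells (Hba-a2 0.46), 1 of 5 in oligodendrocytes (Cnp 0.09) and 2 of 7 in microglia (Aif1 0.12, Csf1r 0.03). Choroid plexus markers (Kl -0.40, Folr1 -0.82) had no call and varied most between libraries, with sums from 341 to 8441. At an unadjusted limma p under 0.05 there were 4 of 5 meningeal (80%) and 4 of 6 interneuron markers (66.7%), all higher, beside 11.0% of all tested genes. There were also 4 of 7 for excitatory neurons (57.1%, 2 higher and 2 lower) and 2 of 5 for oligodendrocytes (40%, all lower). The cerebellum had 2 of 3 tested (66.7%, 1 higher and 1 lower), and each other list of this paragraph had at most 1. The part of these cell types in the values of the 46 cell cycle genes was not tested.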

How the data were processed

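RNA was sequenced from P7 cortex in 3 wildtype libraries and 3 libraries labelled Zmiz1-KO, after library preparation with a kit that does not mark strand. The authors aligned the reads to mm10 with STAR, normalized the counts per gene with DESeq2 in Illumina BaseSpace and deposited the normalized signal of each gene and library, which the text calls normalized counts. Tool versions and the gene annotation are not given in the sources used here. High values did not fall on whole multiples of a step, so whole reads were not recovered and no count test was run.

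A gene was tested where 3 or more libraries reached a value of 10, which left 15800 of 24972 genes. Log2(value + 1) was compared by limma 3.58.1 in R 4.3.3, using trend and robust estimation without covariates. Tests were two-sided, the Benjamini-Hochberg adjustment ran over every tested gene, and genes at or under 0.05 were called. Groups and replicate numbers came from the labels. The smallest p of an exact permutation test at this sample size is 0.1. The procedure was tested on simulated data. Residuals of same-numbered libraries correlated at -0.0051, -0.113 and -0.0063, so the numbers were not taken as pairs. With 3 libraries per group these values cannot exclude a pairing.

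The members and lists were chosen with earlier results of these data known. Values in every library are given for the 3 members with the lowest p in each of the role lists and for Mki67, Top2a, Pcna, Mcm2, Ccnd1, Ccnd2, Cdkn1b and Cdkn1c, and from other lists every called gene and the 2 with the lowest p are named. Neurog1, Neurog2, Cdkn2a, Eomes, Atoh1, En2 and Slc17a7 were named in addition, as markers that define a cell type or as genes that were not tested. C1ql1, Cspg4, Sox10, Nkx2-2, Slc1a3, Fabp7, Zic1 and Barhl1 were named to show list members that differ from those named first. So were Mybl2, Cnp, Aif1, Csf1r, Rgs5, Kcnj8, Acta2, Ccdc153 and Hba-a2. Coordinates, exon lengths and shared 75-base stretches come from GENCODE on GRCm38, the same assembly as mm10, and promoters from RefSeq. Alternatives were limma-voom, other scalings, filters, pseudocounts, thresholds and variance priors, a replicate block, an Xist covariate and leaving out each library. Plots were made in Python 3.11.15 using matplotlib 3.10.9.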

Additional observations from a re-analysis of the deposited data

How the results depend on the processing

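No member was called under any of the 18 alternatives, with the lowest adjusted p of a member between 0.103 (Mcm5, without replicate 2 of the libraries labelled Zmiz1-KO) and 0.550 (Cdk6, without replicate 3 of that group), beside 0.18 in the comparison as reported. Over the same alternatives 3 to 7 members had an unadjusted limma p under 0.05. The number of all tested genes called was 65 as reported, 56 with limma-voom, 106 at an adjusted p of 0.1, 17 without robust estimation, 0 without trend (8.84% of genes at an unadjusted p under 0.05) and 12 to 152 with 1 library left out. With the replicate block 168 genes and 0 members were called, and the lowest adjusted p of a member was 0.112 (Cdk6). Whether the replicate numbers pair the libraries is not known. DESeq2 on recovered reads was not run, since whole reads were not recovered.

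Leaving out 1 library moved the median log2 fold change of G1/S members between 0.034 and 0.11, highest without wildtype replicate 2, and that of G2/M members between 0.031 and 0.10, lowest without replicate 1 of the libraries labelled Zmiz1-KO. Of the 18 members given by library, 3 turned sign, all with groups that overlap. Ccnd1 was at -0.020 without wildtype replicate 3 (range -0.020 to 0.11), Ccnd2 at 0.000757 without replicate 1 of the libraries labelled Zmiz1-KO (range -0.061 to 0.000757) and Mki67 at -0.038 without replicate 2 of that group (range -0.038 to 0.077). The cause was not tested. The other 15 members given by library kept their direction under all alternatives, but 8 of them moved by over 1.5 times with 1 library left out, Ccnd3 (lowest 0.075, without wildtype replicate 1), Mcm2 (lowest 0.14, without replicate 3 of the libraries labelled Zmiz1-KO), Top2a (0.045 without wildtype replicate 1 to 0.14 without wildtype replicate 2), Cdk1 (lowest 0.075, without wildtype replicate 1), Birc5 (0.022 to 0.23, without replicates 3 and 1 of the libraries labelled Zmiz1-KO), Cenpf (0.041 to 0.26, without wildtype replicates 3 and 2), Cdkn1b (-0.063 to -0.014, without replicates 3 and 1 of the libraries labelled Zmiz1-KO) and Cdkn2c (nearest 0 at -0.0097, without wildtype replicate 2). The covariate for Xist left every log2 fold change as it was, which the design fixes because each group holds 1 library with high Xist. With 3 libraries per group, the 95% interval of a member reached from 0.093 (Ccnd2) to 0.582 (Cdc6) on the log2 scale to either side, with a median of 0.234.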
